A study of Mus musculus with 18 samples.

Results

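Wt1-GFP bright (Wt1GFP++) cells sorted from mouse embryonic heart ventricles at E13.5 were compared with the same sorted fraction at E12.5. The members were chosen by the stage in the array titles, which gave 3 arrays at E13.5 and 3 at E12.5 out of 18 arrays in the series, and the comparison ran over 10841 genes measured above background. The 18 arrays covered 6 stages, 1 a day from E11.5 to E16.5, with 3 arrays a stage. Both groups came from Wt1GFPKI mice, which carry green fluorescent protein knocked in at the Wt1 locus. Ventricles were dissociated with enzymes to single cells, the bright cells were collected by fluorescence-activated sorting, and their RNA was hybridised to Illumina bead arrays. No treatment or second genotype entered either group, and the labels give neither the number of embryos behind an array nor whether arrays of 1 stage came from separate litters. Each p-value therefore reflects only how these samples varied among themselves, and that variation may be technical. The level of Wt1 itself was not analysed here.

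The epicardium is the mesothelial sheet that covers the embryonic heart. In these days some of its cells lose their epithelial junctions and enter the underlying muscle, where they become fibroblasts and mural cells of the coronary vessels. The coronary endothelium, which has other sources, spreads through the ventricle wall over the same days, so a sort of ventricular cells can hold epicardial cells, their progeny and neighbouring endothelium. Of 12 epicardial markers, 11 were measured, among them Tbx18, Tcf21, Aldh1a2, Upk3b, Krt18 and Bnc1, and each of these was above background on all 6 arrays. Sema3d was not among the measured genes.

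The 3 arrays at E13.5 did not form 1 group. Across the measured genes, replicates 2 and 3 correlated with each other at r = 0.991, while replicate 1 correlated with them at 0.961 to 0.963, below its correlation with the E12.5 arrays (0.980 to 0.984) and the E14.5 arrays (0.979 to 0.983); these values are across genes, which are not independent replicates. In a principal component analysis of all 18 arrays the first component, with 49.7% of the variance, ordered the stages. The third component, with 11.0% of the variance, placed replicates 2 and 3 at -24.2 and -23.0 and the other 16 arrays between -1.63 and 10.5, the highest being replicate 1. Replicates 2 and 3 were both outside the range of the other 16 arrays for 1533 genes (14.1% of those tested), 843 above and 690 below, against 1.19% of genes for replicates 1 and 2 and 0.443% for replicates 1 and 3. The median SD of a gene over the 3 arrays was 0.0762 on the log2 scale at E12.5, 0.119 at E13.5, and 0.0568 at E13.5 without replicate 1. Replicate 1 was thus the array that differed from its own group, and replicates 2 and 3 were the arrays that differed from the rest of the series. Results are given with all arrays, without E13.5 replicate 1, and with replicate 1 as the only E13.5 array, whose spread is then assumed to be like that of the other stages.

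**Figure D1:**
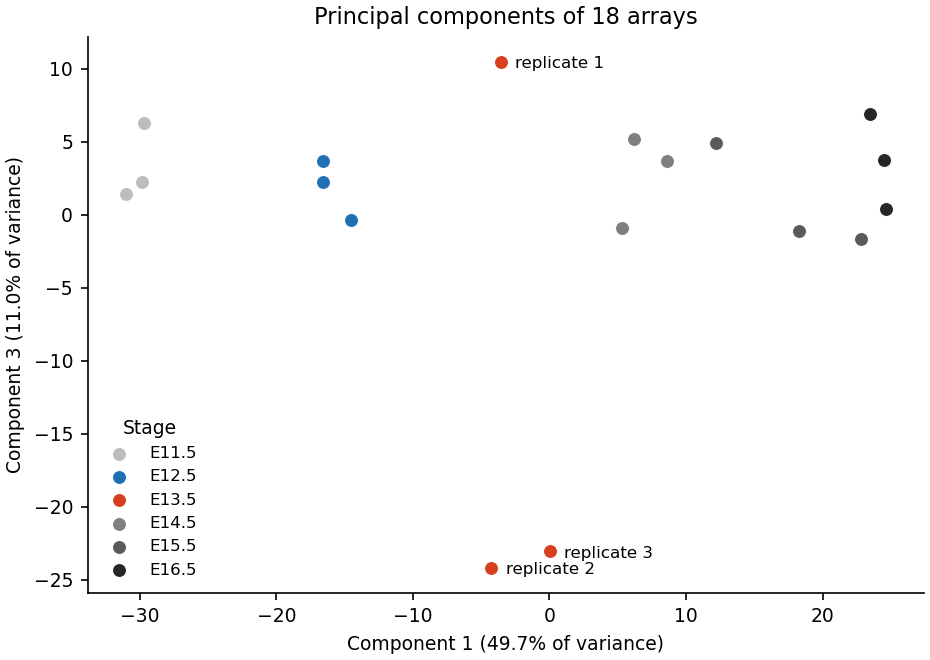
Principal component scores of the 18 arrays, 1 point per array, coloured by stage, with the share of variance on each axis. Component 1 runs from E11.5 at the left to E16.5 at the right; on component 3 the E13.5 replicates 2 and 3 lie at -24.2 and -23.0, replicate 1 at 10.5 and no other array below -1.63.

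Endothelial genes were higher at E13.5. Of 29 epicardial and mesothelial genes, Krt7, Krt18, Upk1b and Calb2 were lower and Cav1 was higher. Socs3 and the chaperone genes Hspa1a, Hspa1b, Hsph1 and Calr were lower. The lists that hold these chaperones did not fall as a whole, with median log2 differences of 0.06 for immediate early and stress genes and 0.08 for the integrated stress response. With limma on all 18 arrays, 527 genes (4.86% of those tested) passed an adjusted p of 0.05, of which 182 (1.68%) were higher at E13.5 and 345 (3.18%) lower. Of these, 19 (0.175%) were at least 2-fold higher and 8 (0.0738%) at least 2-fold lower, and the median log2 difference of all genes was 0.00. The 3 arrays of a stage did not overlap those of the other for 1070 genes higher (9.87%) and 1095 lower (10.1%), and for 175 of the 182 and 325 of the 345 genes called. Each of the 527 genes had the same sign on replicate 1 alone as in the fit. Replicate 1 was part of that fit and helped to make these calls, so the agreement is not a separate test.

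The number of calls depended on the arrays that entered. Without replicate 1 there were 1240 genes called higher (11.4%) and 1352 lower (12.5%). Of these, 538 and 828 had the same sign on replicate 1, and 1098 in all had replicates 2 and 3 outside the range of the other 16 arrays, against 108 of the 527 genes called with all arrays. With replicate 1 as the only E13.5 array, 18 genes (0.166%) were called higher and 20 (0.184%) lower, and 1417 genes had an unadjusted p under 0.05. No gene passed in a fit of the 6 arrays alone, where 1690 genes had an unadjusted p under 0.05. The calls higher and lower were 107 and 312 without E12.5 replicate 1, 40 and 53 without E12.5 replicate 2, and 29 and 63 without E12.5 replicate 3. They were 47 and 80 without E13.5 replicate 2, 42 and 70 without E13.5 replicate 3, and, for the higher ones, 333 without E15.5 replicate 1. Leaving out each of the 18 arrays in turn, 23 genes were called higher and 42 lower in every fit.

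**Figure D2:**
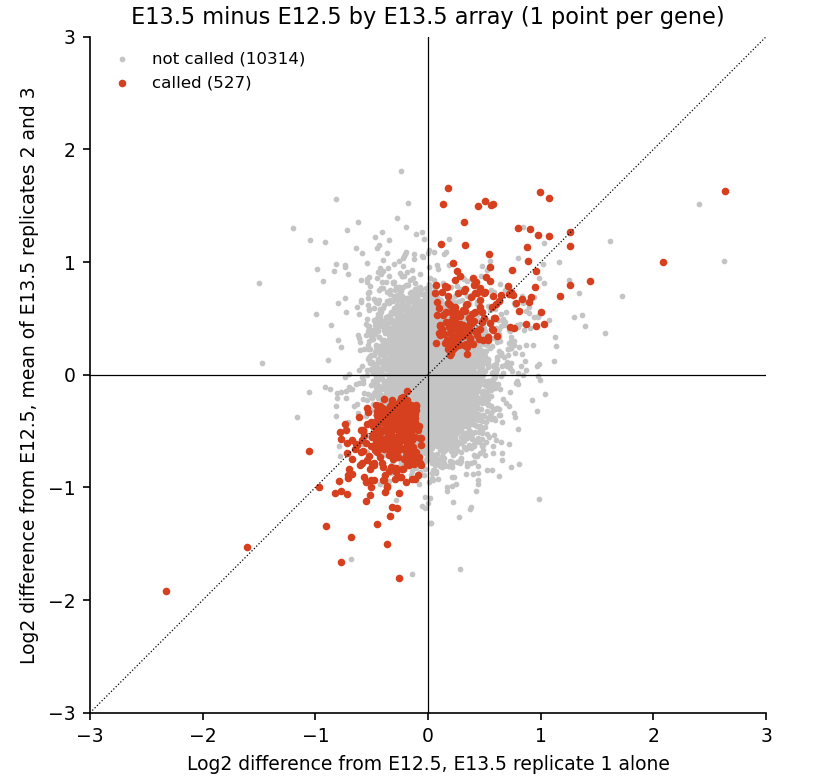
Log2 difference from the E12.5 mean for E13.5 replicate 1 (horizontal) and for the mean of E13.5 replicates 2 and 3 (vertical), 1 point per gene; red points are the 527 genes called with all arrays, grey points the rest, and the dotted line marks equal differences. The called genes, whose calls used replicate 1, lie in the quadrants of equal sign. Grey points spread along the vertical axis show genes that replicates 2 and 3 moved and replicate 1 did not.

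Endothelial and endocardial genes had the most rises of the 36 gene lists examined. Of 31 measured genes of this list, 10 rose and none fell (median log2 difference 0.70, 29 of 31 positive), and in 21 of them the E13.5 arrays were all above the E12.5 arrays. Among all genes 1.68% were called higher and 9.87% had all E13.5 arrays above the E12.5 arrays. The list median was 0.51 without replicate 1 and 0.80 on replicate 1 alone. Without replicate 1, 13 were called higher, beside 11.4% of all genes. The list's summed intensity above the background floor was 7734, 10548 and 8670 in the E12.5 arrays and 20067, 14881 and 17889.9 in the E13.5 arrays. In sorted cells pooled for 1 array, more cells of a type and more RNA per cell cannot be told apart. Kdr, Erg, Fabp4, Apln and Ecscr, also on the list, were not above the floor on any of the 6 arrays.

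Cdh5, the cadherin of endothelial cell contacts, had log2 intensities of 7.98, 8.52 and 8.22 at E12.5 and 9.50, 9.26 and 9.76 at E13.5. Every E13.5 array was above every E12.5 array, and replicate 1 lay between the other two. The difference was 1.27 ± 0.24 on the log2 scale (SE, n = 3 arrays a stage, adjusted p = 0.0121), with 1.26 on replicate 1 alone. Esam, an adhesion molecule of the same contacts, read 9.25, 9.92 and 9.39 and then 10.60, 10.52 and 10.98 (1.18 ± 0.22, adjusted p = 0.0119). The calls of both were lost without E12.5 replicate 3 or E13.5 replicate 3, where the adjusted p of each reached 0.0628.

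Robo4, an endothelial Roundabout receptor, rose from 8.46, 8.92 and 8.62 to 9.93, 9.69 and 9.93 (1.18 ± 0.21, adjusted p = 0.00939) and was called in all 18 fits with 1 array left out. Its groups did not overlap, but its 2 dimmer probes differed by -0.03 and 0.00. Emcn, the sialomucin endomucin, rose from 8.51, 8.74 and 8.53 to 9.55, 9.45 and 9.58 (0.93 ± 0.15, adjusted p = 0.00508), with 0.92 without replicate 1 and 0.96 on it alone. Aplnr, the apelin receptor, read 7.04, 7.26 and 7.12 and then 8.10, 7.72 and 8.13 (0.84 ± 0.15, adjusted p = 0.00938). Emcn and Aplnr, named after their values were seen, were also called in all 18 fits. In both, replicate 1 lay between replicates 2 and 3.

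Sox7 and Sox17, transcription factors of endothelial specification, rose by 1.41 ± 0.27 and 0.68 ± 0.17 on the log2 scale. The Sox7 arrays read 7.86, 8.14 and 7.84 at E12.5 and 9.03, 9.37 and 9.66 at E13.5, with no overlap (adjusted p = 0.0126, called in 16 of 18 fits). Its other 2 probes differed by 0.00 and 0.89. Pecam1, the platelet and endothelial adhesion molecule CD31, read 7.29, 7.38 and 7.20 and then 7.61, 8.49 and 8.80. Its groups did not overlap, but replicate 1 rose least: the difference was 1.01 ± 0.25 (adjusted p = 0.0337) with all arrays, 1.35 without replicate 1 and 0.32 on replicate 1 alone. Eng, the TGF-beta co-receptor endoglin, had the same order of arrays, with 0.92 without replicate 1 and 0.26 on it alone. Cldn5, the tight junction claudin of endothelium, was not called (0.77 ± 0.35, adjusted p = 0.225): replicate 1 read 10.62 and the other two 9.42 and 9.42, against 8.82 to 9.27 at E12.5.

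Cav1, the coat protein of caveolae, belongs both to the endothelial list and to the mesothelial one. It read 9.04, 9.07 and 8.87 at E12.5 and 11.09, 9.88 and 10.11 at E13.5, with replicate 1 highest and no overlap. The difference was 1.36 ± 0.24 (adjusted p = 0.00938), 0.998 without replicate 1 and 2.09 on replicate 1 alone, called in each. Over the 6 stages its mean rose from 7.71 at E11.5 to 11.27 at E14.5. Sgk1, a serum-induced and glucocorticoid-induced kinase, read 9.94, 9.85 and 9.42 and then 10.64, 11.15 and 10.91 (1.17 ± 0.19, adjusted p = 0.00667), without overlap and in all 18 fits.

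Kit, the receptor of stem cell factor, rose by 1.20 ± 0.25 (adjusted p = 0.0175), from 7.57 to 7.79 at E12.5 to 8.23, 9.03 and 9.31. Nrarp, a Notch target that feeds back on the pathway, rose by 1.20 ± 0.30 (adjusted p = 0.0353), to 7.83, 8.72 and 9.01. In both, replicate 1 was above every E12.5 array and below replicates 2 and 3. Of 16 Notch genes, Nrarp and Numb, an endocytic inhibitor of Notch (0.45 ± 0.12), rose and none fell. Over all genes 1.68% were called higher. The 2 other probes of Numb differed by -0.04 and 0.01. Hes1, the transcriptional repressor that Notch induces, read 8.58 on replicate 1 and 10.90 and 10.37 on replicates 2 and 3, against 8.38 to 9.50 at E12.5. Its groups overlapped and it was not called (1.13 ± 0.46, adjusted p = 0.167), while without replicate 1 it was (1.81).

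**Figure D3:**
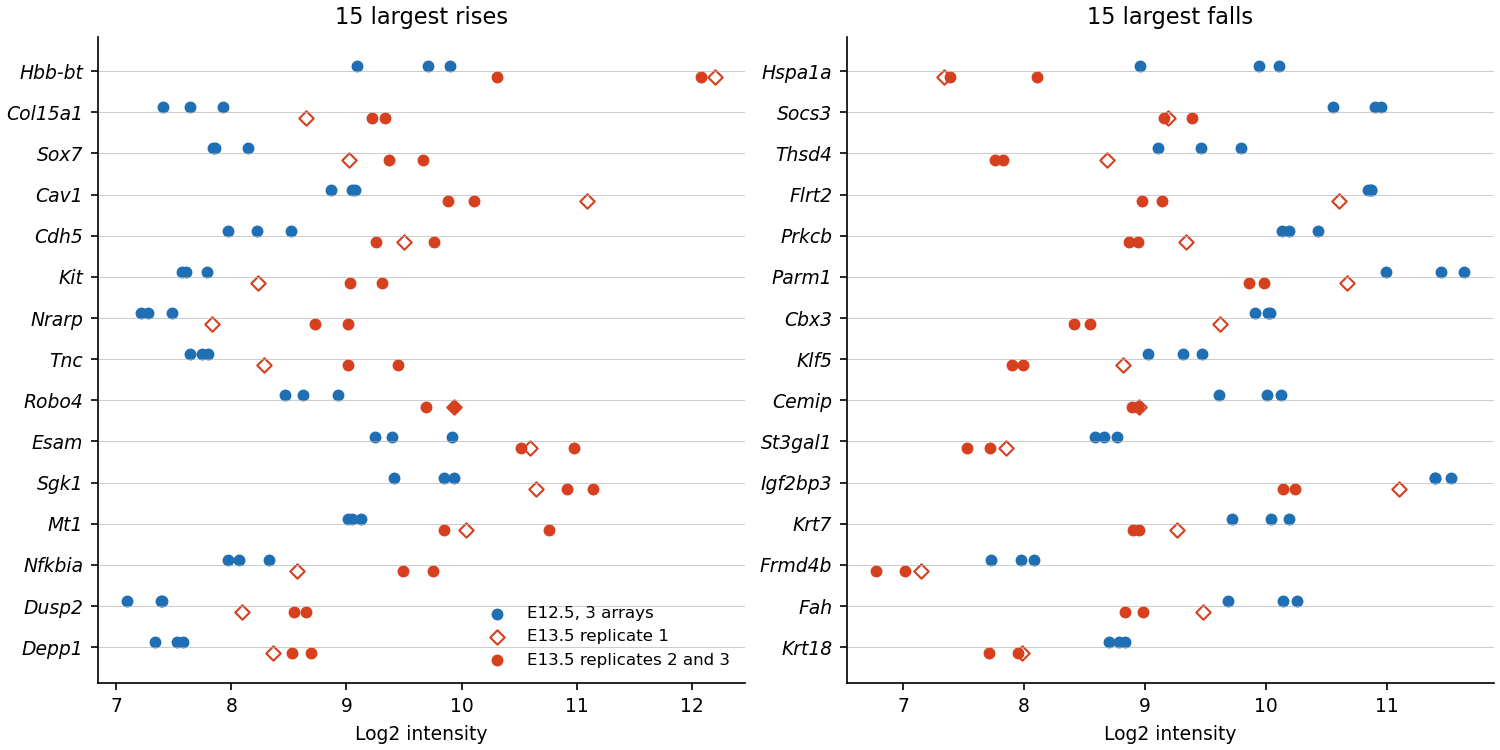
Log2 intensity by array for the 15 largest rises (left) and the 15 largest falls (right) among called genes whose groups do not overlap: blue points are the 3 E12.5 arrays, the open diamond E13.5 replicate 1, and filled red points E13.5 replicates 2 and 3. Replicate 1 sits near the others for Cdh5, Robo4, Socs3 and Cemip and close to the E12.5 arrays for Flrt2, Igf2bp3 and Nfkbia.

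Among the matrix genes that rose, Col15a1, Tnc, Col6a1 and Col14a1 were higher on replicates 2 and 3 than on replicate 1, and Col4a1 was highest on replicate 1. Col15a1, a collagen of vascular basement membranes, rose by 1.41 ± 0.20 (adjusted p = 0.00310), from 7.40, 7.93 and 7.64 to 8.65, 9.22 and 9.34, with no overlap and in all 18 fits. Tnc, the matrix glycoprotein tenascin-C, read 7.74, 7.80 and 7.64 and then 8.28, 9.45 and 9.02 (1.19 ± 0.20, adjusted p = 0.00665). Its replicate 1 rose by 0.56 and the other two by 1.51. Its 4 other probes differed by 0.05 to 1.09. Of 30 fibroblast and interstitial matrix genes, Col6a1, Col14a1 and Tnc rose and none fell, beside 1.68% of all genes higher. The list median was 0.03 with all arrays and 0.02 on replicate 1 alone. Without replicate 1, 9 rose and 2 fell, where 11.4% of all genes were called higher and 12.5% lower.

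Col6a1, a chain of collagen VI, overlapped between stages: 9.88 to 10.14 at E12.5 and 10.11, 11.43 and 11.56 at E13.5 (1.05 ± 0.25, adjusted p = 0.0297). Its 2 other probes differed by 0.12 and 0.55. Col14a1, a fibril-associated collagen, read 7.77 to 7.82 and then 8.13, 8.71 and 8.42 (0.62 ± 0.11, adjusted p = 0.0102) and was called in all 18 fits. Col1a1, the main chain of fibrillar collagen I, was not called (0.68 ± 0.33, adjusted p = 0.252). It read 10.38 on replicate 1, below all E12.5 arrays (10.46 to 10.92), and 11.63 and 12.20 on the other two. Pdgfra, the fibroblast receptor for platelet-derived growth factor, differed by -0.02 ± 0.16, and Pdgfrb, its mural cell counterpart, by 0.34 ± 0.11 (adjusted p = 0.0915). Of 21 basement membrane genes Col15a1 and Col4a1 (0.46 ± 0.12) rose, and of 14 smooth muscle and pericyte genes only Abcc9, a subunit of a potassium channel of pericytes (0.38 ± 0.10), rose. Among all genes 1.68% were called higher. The other probe of Abcc9 differed by 0.08.

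Of 29 epicardial and mesothelial genes measured, Krt7, Krt18, Upk1b and Calb2 fell and Cav1 rose, with a median of -0.31 and 8 positive. Of all genes 3.18% were called lower and 1.68% higher. The list median was -0.28 without replicate 1 and -0.10 on replicate 1 alone. Without replicate 1, 8 fell and 4 rose, where 12.5% of all genes were called lower and 11.4% higher. Krt18, a simple-epithelium keratin, read 8.70, 8.84 and 8.78 at E12.5 and 7.99, 7.95 and 7.71 at E13.5 (-0.89 ± 0.21, adjusted p = 0.0260). Krt7, another keratin of mesothelium, read 9.72, 10.04 and 10.19 and then 9.27, 8.95 and 8.90 (-0.95 ± 0.23, adjusted p = 0.0297). Neither keratin overlapped between stages, and replicate 1 differed by -0.79 for Krt18 and by -0.72 for Krt7. Upk1b, a uroplakin, read 10.03, 10.12 and 10.27 and then 9.82, 8.99 and 8.95 (-0.88 ± 0.20, adjusted p = 0.0249), with replicate 1 nearest to E12.5. The calls of Krt7, Krt18 and Upk1b were lost without any 1 of E12.5 replicates 2 and 3 and E13.5 replicates 2 and 3, where the adjusted p reached 0.131, 0.116 and 0.121.

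Several epicardial genes in wide use as markers did not pass. Upk3b, a uroplakin of mesothelium, read 12.15, 12.57 and 12.60 and then 11.76, 11.84 and 11.89, without overlap (-0.61 ± 0.19, adjusted p = 0.0856). The epicardial T-box factor Tbx18 stood at -0.47 ± 0.19 (adjusted p = 0.177) and at -0.68 without replicate 1, where it was called. Tcf21, a transcription factor of epicardial fibroblast precursors, read 10.32 on replicate 1 and 11.13 and 10.99 on the others, against 10.45 to 10.56 at E12.5. Its sign thus depended on the array: 0.29 ± 0.17 with all (adjusted p = 0.376), 0.54 without replicate 1, where it was called, and -0.21 on replicate 1 alone. Aldh1a2, the retinoic acid synthesis enzyme, differed by -0.31 ± 0.14 and Krt19 by -0.39 ± 0.23, neither called.

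Among genes of cell junctions and the mesenchymal transition few passed. Of 18 junction and polarity genes, Cldn3, a tight junction claudin (-0.54 ± 0.13, adjusted p = 0.0284), and Llgl2, a polarity protein (-0.51 ± 0.13, adjusted p = 0.0367), fell. The shares of all genes called were 3.18% lower and 1.68% higher. Of 21 transition genes Zeb1, a repressor of epithelial genes, rose: its mean was 9.22 ± 0.19 (SD, n = 3) at E12.5 and its arrays read 9.66, 10.08 and 9.81 at E13.5 (0.63 ± 0.15, adjusted p = 0.0343). Its groups did not overlap, and its other probe differed by -0.04. Snai1 and Snai2, zinc finger repressors of E-cadherin, were not called, at 0.36 ± 0.14 and -0.05 ± 0.14.

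**Figure D4:**
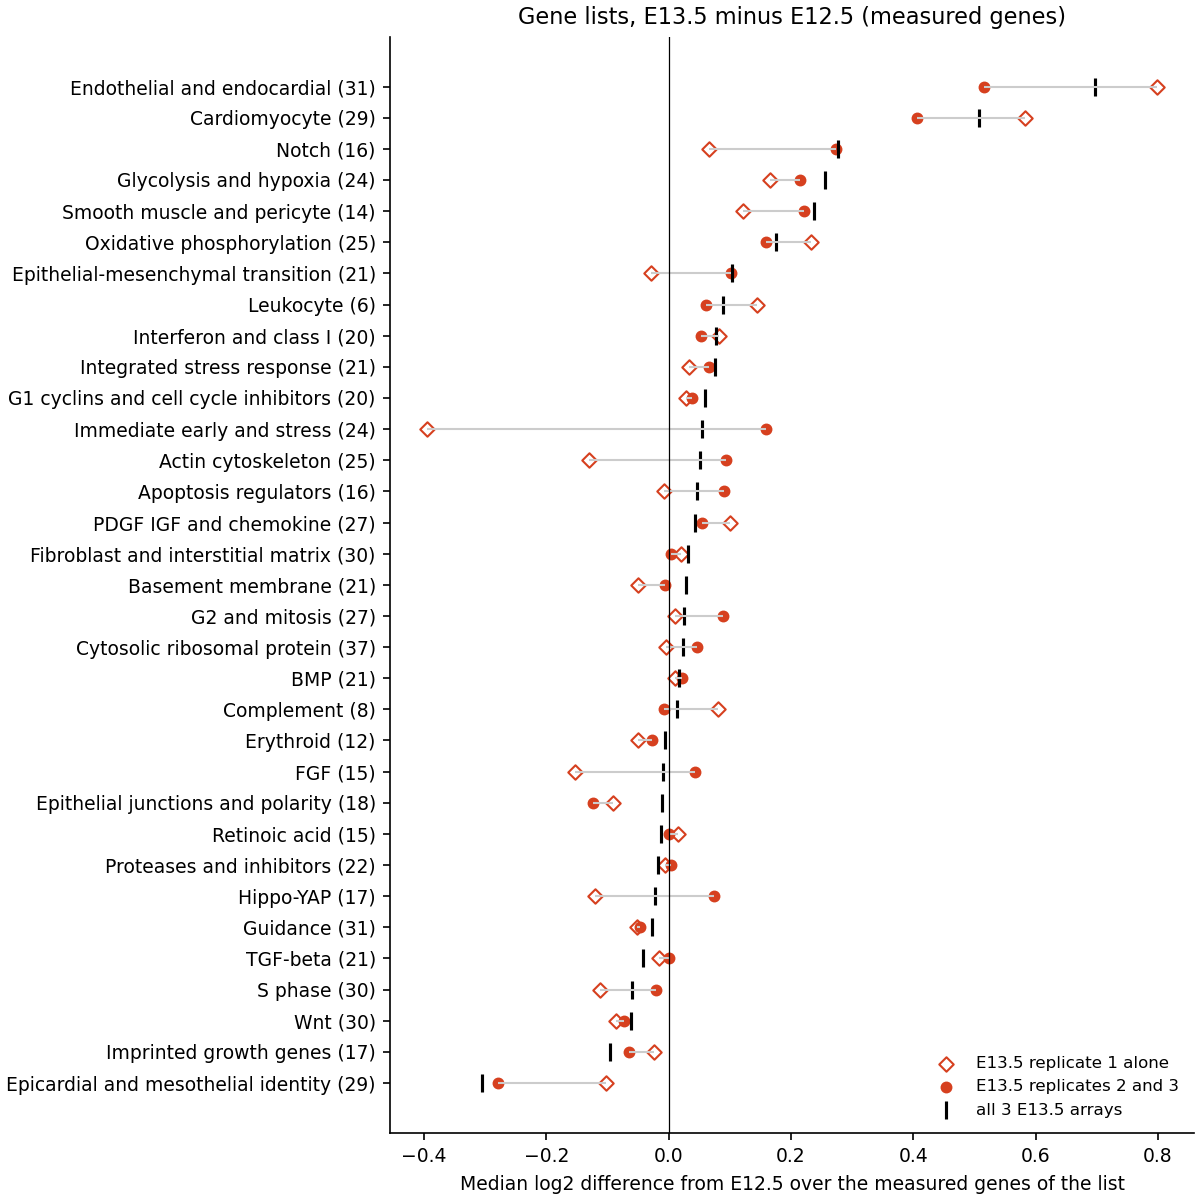
Median log2 difference of E13.5 from E12.5 over the measured genes of each list (number in brackets): black ticks with all 3 E13.5 arrays, filled red points replicates 2 and 3, open diamonds replicate 1 alone. The endothelial list stands at 0.70 and the epicardial list at -0.31; for immediate early and stress genes replicate 1 alone stands at -0.40 and replicates 2 and 3 at 0.16.

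The largest falls were in the chaperone gene Hspa1a and in Socs3, a feedback inhibitor of JAK-STAT cytokine signalling. Hspa1a read 8.96, 9.94 and 10.10 at E12.5 and 7.34, 8.11 and 7.39 at E13.5 (-2.05 ± 0.46, adjusted p = 0.0213). Socs3 read 10.55, 10.90 and 10.95 and then 9.19, 9.15 and 9.39 (-1.56 ± 0.23, adjusted p = 0.00347). For both genes every E13.5 array was below every E12.5 array, and replicate 1 lay beside the others. Socs3 was called in all 18 fits; the Hspa1a call was lost without E12.5 replicate 2 or 3 or E13.5 replicate 3, where the adjusted p reached 0.103. On replicate 1 alone they differed by -2.33 and -1.61. The 2 dimmer probes of Hspa1a differed by -0.49 and -0.39.

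Hspa1b, the near-identical neighbour of Hspa1a, read 7.01, 7.47 and 7.62 at E12.5 and 6.72, 6.79 and 6.71 at E13.5, where 1 of 3 arrays was above the floor of 6.77 (-0.62 ± 0.14, adjusted p = 0.0215). Signal of the pair on the arrays may be shared and their values are uncertain as those of separate genes. Hsph1, a chaperone of the 110-kilodalton class, read 9.84, 9.76 and 9.65 and then 9.18, 8.50 and 9.19 (-0.79 ± 0.19, adjusted p = 0.0332). In both the stages did not overlap. Of 24 immediate early and stress genes only these 3 chaperones fell, beside 3.18% of all genes, and none rose. The list median was 0.06 with all arrays, 0.16 without replicate 1 and -0.40 on replicate 1 alone, where 3 of 24 genes were positive.

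The sequences before the starts of Socs3 and Hspa1a are shown because these were the largest falls and each holds the short motif that its known regulators bind. They are 250 bases each from RefSeq (GRCm38.p6), 5′ to 3′ on the gene's strand, both genes being on the minus strand: Socs3 at chr11:117969367-117969616 and Hspa1a at chr17:34972157-34972406. Capitals mark the motif, searched on both strands: for Socs3 the STAT palindrome TTCNNNGAA, starting 154 bases upstream, and for Hspa1a 2 head-to-head units of the heat shock element, GAANNTTC, starting 104 bases upstream.
Socs3: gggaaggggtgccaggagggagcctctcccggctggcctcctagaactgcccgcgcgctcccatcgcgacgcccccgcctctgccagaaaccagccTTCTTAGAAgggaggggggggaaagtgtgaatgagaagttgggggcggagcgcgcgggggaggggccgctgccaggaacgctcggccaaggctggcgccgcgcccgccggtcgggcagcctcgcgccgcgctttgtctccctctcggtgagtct
Hspa1a: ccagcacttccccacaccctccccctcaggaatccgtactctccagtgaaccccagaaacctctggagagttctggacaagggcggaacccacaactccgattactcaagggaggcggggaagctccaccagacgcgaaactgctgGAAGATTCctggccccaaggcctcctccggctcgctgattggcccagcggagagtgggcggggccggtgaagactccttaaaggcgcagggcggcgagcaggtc
TTCNNNGAA occurred in 7.02% and GAANNTTC in 6.69% of the 32851 windows of this length. The Hspa1b window matched that of Hspa1a at 247 of 250 positions (98.8%) and holds the same motif at the same place. The Hsph1 windows, searched in the same way, held no GAANNTTC. They held the tail-to-tail form TTCNNGAA, which occurred in 7.17% of all windows. Holding a motif was part of the reason for showing a sequence, so the matches are descriptions of the letters only.

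Both genes were higher at E12.5 than at the stages on either side. The mean of Hspa1a was 6.93 at E11.5, 9.67 at E12.5, 7.61 at E13.5 and 7.64 at E14.5; that of Socs3 was 9.27, 10.80, 9.25 and 8.90. Hspa1a was high again later, with means of 8.70 at E15.5 and 9.86 at E16.5, the latter above E12.5, while Socs3 stood at 9.51 and 9.50. The step from E12.5 to E13.5 minus the step from E11.5 to E12.5, steps that share the E12.5 arrays, was -4.79 for Hspa1a (adjusted p = 0.0112) and -3.09 for Socs3 (adjusted p = 0.00206). This difference of steps was called for 112 genes, 22 positive (0.203%) and 90 negative (0.830%), of which 76 went up and then down, 13 down and then up, 14 up in both and 9 down in both. Of the 112, 39 were also called in the step itself. The endothelial genes described above had positive steps on both days: Esam had steps of 2.10 and then 1.18, and Emcn of 1.63 and then 0.93. None of the 31 on the list was among the 112. With 0.203% and 0.830% of all genes called, that absence says little about the list. Krt18 had steps of -0.64 and then -0.89 on the log2 scale.

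**Figure D5:**
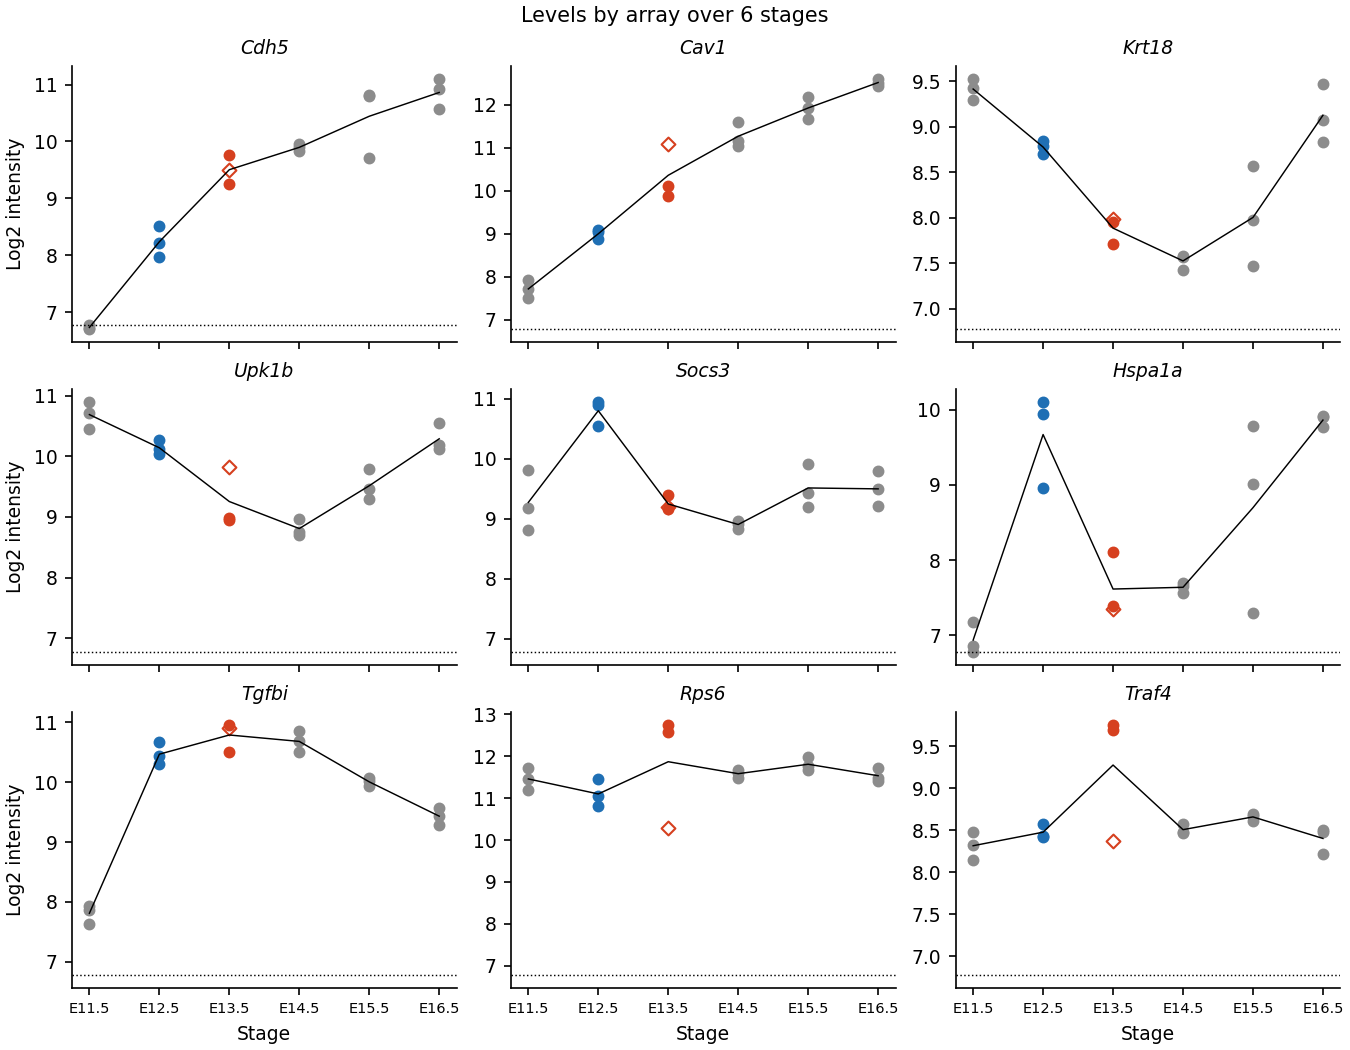
Log2 intensity of 9 genes by stage, 1 point per array (blue E12.5, open diamond E13.5 replicate 1, red E13.5 replicates 2 and 3, grey other stages), with the line through the stage means and the dotted line at the background floor of 6.77. Cdh5 and Cav1 climb and Krt18 and Upk1b decline from E11.5 to E14.5, Socs3 and Hspa1a are higher at E12.5 than at E11.5 and E13.5, with Hspa1a high again at E16.5, Tgfbi steps up at E12.5, and Rps6 and Traf4 are high only on E13.5 replicates 2 and 3.

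Other falls included enzymes, membrane proteins and a transcription factor. St3gal1, a sialyltransferase, read 8.58, 8.66 and 8.76 at E12.5 and 7.85, 7.53 and 7.72 at E13.5 (-0.97 ± 0.07, adjusted p = 1.85e-05). It had no overlap, held in all 18 fits and was called on replicate 1 alone (-0.82), while its other probe differed by -0.17. Prkcb, a protein kinase C, read 10.13, 10.19 and 10.43 and then 9.34, 8.94 and 8.86 (-1.20 ± 0.15, adjusted p = 0.00123), without overlap and in all 18 fits; its 2 other probes differed by -0.48 and -0.22. Zfhx3, a homeodomain zinc finger factor, differed by -0.81 ± 0.09, Cpm, a membrane carboxypeptidase, by -0.71 ± 0.06, and Plppr5 by -0.64 ± 0.06; these were named after their values were seen and were called in all 18 fits.

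Flrt2, a fibronectin and leucine-rich transmembrane protein, and Igf2bp3, an RNA-binding protein of fetal tissue, fell mainly on replicates 2 and 3. Igf2bp3 was the 1 gene called among 4 measured of developmental timing, beside 4.86% of all genes. Flrt2 read 10.84 to 10.87 at E12.5 and 10.61, 9.14 and 8.97 at E13.5 (-1.29 ± 0.32, adjusted p = 0.0359). Igf2bp3 read 11.39 to 11.53 and then 11.10, 10.24 and 10.14 (-0.95 ± 0.18, adjusted p = 0.0110). Their groups did not overlap, and replicate 1 differed by -0.25 and -0.34. Thsd4 (-1.36 ± 0.24) and Klf5, a Krüppel-like factor (-1.03 ± 0.27), were likewise lower on replicates 2 and 3 than on replicate 1, where they differed by -0.77 and -0.45. The other probes of Igf2bp3 differed by -0.20 to -0.04 and those of Thsd4 by -0.72 to -0.03. Cemip, a hyaluronan-degrading protein, differed from these: its E13.5 arrays read 8.95, 8.90 and 8.95 against 9.61 to 10.13 (-0.98 ± 0.22, adjusted p = 0.0217). Fah, the last enzyme of tyrosine breakdown (-0.93 ± 0.20), Parm1 (-1.19 ± 0.20) and Frmd4b (-0.94 ± 0.17) completed the falls. The other probe of Parm1 differed by -0.41 and that of Frmd4b by -0.003. Cbx3, a heterochromatin protein, fell by 1.13 on its brightest probe, while its other probe differed by 0.01.

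The remaining large rises were in Nfkbia, Mt1, Dusp2 and Depp1. Nfkbia, the inhibitor of NF-kappaB, read 7.97 to 8.33 at E12.5 and 8.57, 9.49 and 9.75 at E13.5 (1.15 ± 0.25, adjusted p = 0.0210), with a rise of 0.45 on replicate 1; its other probe differed by 0.05. Mt1, a metallothionein, read 9.01 to 9.13 and then 10.04, 9.85 and 10.76 (1.15 ± 0.26, adjusted p = 0.0229). Dusp2, a phosphatase of MAP kinases, rose by 1.13 ± 0.28 and Depp1 by 1.05 ± 0.28. None of these overlapped between stages, and Dusp2 and Depp1 were called in 9 and 4 of the 18 fits with 1 array left out.

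Among transcripts of blood cells Hbb-bt rose. This adult beta-globin read 9.09, 9.71 and 9.90 at E12.5 and 12.21, 10.31 and 12.08 at E13.5 (1.96 ± 0.41, adjusted p = 0.0171), the largest rise among the genes named, with replicate 2 lowest and no overlap. It is a near-identical copy of Hbb-bs, with which its probe may share signal, and its 3 other probes differed by 0.50 to 2.24. The call was lost without any 1 of the E12.5 arrays or E13.5 replicate 3 (adjusted p up to 0.0837). Of 12 erythroid genes Hbb-bt alone rose, beside 1.68% of all genes, and the list median was -0.01 with 6 positive. The embryonic globin Hbb-y differed by -1.32 ± 0.45 (adjusted p = 0.103). The erythroid sum above the floor was 2341 to 3728 at E12.5 and 13636, 3249 and 11768 at E13.5. The red cell factors Gata1 and Klf1 were not above the floor on any of the 6 arrays. Tfrc, of the same list, was above it on all 6 and Slc4a1 on 5.

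Of 29 cardiomyocyte genes none was called, beside 4.86% of all genes, and 2 had an unadjusted p under 0.05 in the limma fit. The list median was 0.51 (0.41 without replicate 1 and 0.58 on it alone). Positive differences were seen for 26 genes, which share the same arrays and are not independent. The mean log2 level of the list was 8.74 to 9.14 at E12.5 and 9.50, 8.85 and 9.79 at E13.5. E13.5 replicate 2 thus lay within the E12.5 range. Mb, myoglobin, read 8.16, 7.81 and 7.62 and then 10.27, 8.85 and 9.92 (1.82 ± 0.68, adjusted p = 0.138), with no overlap, and Myl2, the ventricular myosin light chain, differed by 0.74 ± 0.33. Of 6 measured leukocyte genes Mrc1, the mannose receptor, rose by 0.29 ± 0.07 near the floor, beside 1.68% of all genes called higher. Ptprc, Adgre1 and C1qa were not above the floor on any of the 6 arrays. Laptm5 and Csf1r, of the same list, were above it on all 6, Mrc1 on 5 and Coro1a on 4. The part of these cells' RNA in the other differences was not tested; over the E13.5 arrays the muscle level was lowest on replicate 2 and the endothelial sum was also lowest there.

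The signalling lists had from none to 3 members called, to be read against the 4.86% of all genes called in either direction. In TGF-beta signalling Eng rose (0.70 ± 0.16) and the activin receptor Acvr2b (-0.88 ± 0.20) and the latent TGF-beta binding protein Ltbp1 (-0.45 ± 0.12) fell, of 21. The other probe of Ltbp1 differed by 0.04. In Wnt signalling the ligand Wnt2 (-0.36 ± 0.09) and the secreted protein Dkk3 (-0.41 ± 0.09) fell, of 30. Among 27 PDGF, IGF and chemokine genes the receptor Cxcr4 rose (0.66 ± 0.13, adjusted p = 0.0154), and Hgf, hepatocyte growth factor, fell (-0.61 ± 0.11, adjusted p = 0.0119). Cxcr4 read 6.81 to 6.95 at E12.5 and 7.32, 7.58 and 7.65 at E13.5, and Hgf 7.65 to 7.83 and then 7.27, 7.08 and 7.01, neither overlapping. Rxrb, a retinoid X receptor, fell (-0.54 ± 0.11), alone among 15 retinoic acid genes. Its other probe differed by -0.18. None of 21 BMP genes, 15 FGF genes or 17 Hippo genes was called; the genes nearest to the threshold were Msx1 (adjusted p = 0.0643), Fgf9 (adjusted p = 0.0758) and Sav1 (adjusted p = 0.0630).

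Among 31 guidance genes Robo4 and the ligand Efna1 (0.69 ± 0.18) rose and the ligand Efnb1 (-0.58 ± 0.12) fell. Of 22 proteases and inhibitors, Ctsk, cathepsin K, and Plau, urokinase, rose and Mmp23 fell (-0.69 ± 0.16). Ctsk read 6.97, 7.03 and 7.19 and then 7.65, 7.68 and 7.45 (0.53 ± 0.08, adjusted p = 0.00451), without overlap, in all 18 fits and on replicate 1 alone. Of 25 actin genes Cfl1, cofilin, rose (0.49 ± 0.13). Beside these lists, 1.68% of all genes were called higher and 3.18% lower.

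Of 24 glycolysis and hypoxia genes Ldha, lactate dehydrogenase A (0.38 ± 0.10), Pfkl, a phosphofructokinase (0.48 ± 0.12), and Aldoc, an aldolase (0.29 ± 0.08), rose, and the glucose transporter Slc2a1 fell (-0.52 ± 0.11), with a list median of 0.26; these are 4 of 24 called, beside 4.86% of all genes. None of 25 oxidative phosphorylation genes was called. Of 17 imprinted genes Peg3 (-0.78 ± 0.17, adjusted p = 0.0215) and Nnat (-0.57 ± 0.12, adjusted p = 0.0155) fell; Igf2 differed by 0.04 ± 0.07, at 13.79 to 14.00 on all 6 arrays, and the cell cycle inhibitor Cdkn1c by -0.29 ± 0.12. The licensing factor Cdt1 fell (-0.53 ± 0.14), of 30 S phase genes, and the mitotic kinase Cdk1 rose (0.64 ± 0.16), of 27 genes of G2 and mitosis. The other probe of Cdk1 differed by 0.01 and that of Pfkl by 0.01. No member of 20 G1 cyclins and inhibitors, 16 apoptosis regulators or 8 complement genes was called, nor of the 2 neural crest and 4 sex chromosome genes measured. Calr, the chaperone calreticulin, fell (-0.60 ± 0.14), of 21 genes of the integrated stress response, and B2m, the light chain of MHC class I, rose (0.44 ± 0.12), of 20 interferon genes.

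Several calls near the threshold were lost without any 1 of many arrays. With each of the 18 arrays left out in turn, B2m and Cdt1 were called in 3 fits, Col4a1, Numb, Cfl1 and Aldoc in 5, Cdk1 and Efna1 in 6, and Klf5 in 7. Nrarp, Flrt2, Abcc9, Mrc1 and Ldha were called in 9 fits, Llgl2 and Plau in 10, and Ltbp1 in 11. Their highest adjusted p over these fits ranged from 0.124 for Col4a1 to 0.198 for Cfl1.

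Rps6, Rps7, Traf4 and Srr were among the 20 genes with the widest gap between E13.5 replicates 2 and 3 and the other 16 arrays, and were chosen after their values were seen. Rps6, a small-subunit ribosomal protein, read 10.28 on replicate 1 and 12.75 and 12.57 on replicates 2 and 3, against 10.81 to 11.45 at E12.5. Replicate 1 was below and the other two above every E12.5 array, and the difference was 0.77 ± 0.44 with all arrays (adjusted p = 0.348), 1.56 without replicate 1, where it was called, and -0.82 on it alone. Rps7 had the same order, at 11.18, 13.20 and 13.16. Traf4, an adaptor of receptor signalling, read 8.37, 9.75 and 9.70 against 8.42 to 8.57, and Srr, serine racemase, 10.55, 8.41 and 8.68 against 10.05 to 10.50. Of 37 cytosolic ribosomal protein genes none was called with all arrays. Without replicate 1, 11 were higher and 5 lower, where 11.4% of all genes were called higher and 12.5% lower. For 12 of the 37, replicates 2 and 3 were outside the range of the other 16 arrays, beside 14.1% of all genes.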

How the data were processed

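Biotinylated cRNA from sorted cells was hybridised to Illumina bead arrays, 18 in all. The deposited series matrix holds intensities that the authors produced with GenomeStudio 2011.1, per the submitters' processing notes. Their columns have the same distribution to within 2.04 intensity units, as after quantile normalization, a step not given in the sources used here. Of a second deposited table, 36 columns of per-sample values were not used. The intensities were put on the log2 scale here. A background floor of 109 (6.77 log2) was set from the mode of the intensities (99.2) and the spread below it at a tail of 0.01. Probes above it on at least 3 of 18 arrays were kept (20027 of 45281), and each gene took its brightest kept probe. Of all probes 34885 had 1 gene symbol, 18 several and 10378 none. On 18 arrays the number of arrays limits the precision.

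The model was limma 3.58.1 in R 4.3.3 (lmFit, contrasts.fit, eBayes) with 1 mean per stage on all 18 arrays and 12 residual degrees of freedom. Benjamini-Hochberg adjustment ran over 10841 genes. Each printed adjusted p comes from the limma model. Its run on simulated data gave every stage the same spread and arrays independent noise. That run could not test the model under the wider spread at E13.5. Named genes were the 15 largest rises and falls among called genes whose groups do not overlap, the called members (up to 4 a list, or the lowest p) of 36 gene lists with at least 5 measured genes, and a fixed set of marker genes. The members, lists and rules were chosen with earlier results of these data known. The labels do not say whether replicate numbers pair samples across stages, and the model did not pair them. Deviations from the stage means at E12.5 and E13.5 correlated at 0.01, 0.21 and -0.25 for numbers 1, 2 and 3, which does not settle it. Alternatives covered the arrays in the fit, a replicate block, the floor, background, normalization, array weights, variance model and probe rule; the fit without E13.5 replicates 2 and 3 was added after seeing the data.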

Additional observations from a re-analysis of the deposited data

Results flagged for a closer look

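For 11 of the genes named, the step from E12.5 to E13.5 differed from the step from E11.5 to E12.5. The limma test of this difference shares the E12.5 arrays between the steps. Of all 10841 genes, 0.203% were called positive in it and 0.830% negative. Several of the 11 were named after their values were seen, so their number is not a result about the named genes. The log2 difference of the steps was -4.79 for Hspa1a, -3.09 for Socs3, -1.3 for Hspa1b, -1.46 for St3gal1, -1.1 for Zfhx3 and -0.939 for Cpm, each called lower on this day and higher at E12.5 than at E11.5. Hspa1b was above the background floor on no array at E11.5 and on 1 of 3 at E13.5, so its steps have no exact size. It was -2.34 for Tgfbi, a matrix protein induced by TGF-beta, -3.12 for Thbs2, a matrix thrombospondin, and -1.74 for Ccn4, a matricellular protein. These had means of 7.81, 7.77 and 7.70 at E11.5, 10.47, 10.71 and 9.05 at E12.5 and 10.79, 10.53 and 8.66 at E13.5, and none was called between E12.5 and E13.5. In the opposite direction it was 2.74 for Tmem255a and 1.73 for the imprinted gene Mest. Tmem255a had means of 10.38, 8.49 and 9.34 over these days and Mest of 11.17, 10.04 and 10.64, neither called from E12.5 to E13.5. Tgfbi, Thbs2, Ccn4, Tmem255a, Mest, Zfhx3 and Cpm were chosen after their values were seen.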

How the results depend on the processing

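Counts of genes called higher, lower, at least 2-fold higher, at least 2-fold lower and different from the step before were 182, 345, 19, 8 and 112. Leaving out 1 array gave 29 to 1240, 53 to 1352, 5 to 60, 3 to 34 and 16 to 1265, the low ends without E12.5 replicate 2 or 3 and the high ends without E13.5 replicate 1. Array weights, with 0.158 for E13.5 replicate 1, gave 1772, 1856, 55, 38 and 2048. Without E13.5 replicates 2 and 3 they were 18, 20, 7, 1 and 48. The 6 arrays alone gave 0, 0, 0 and 0, with 1690 genes at an unadjusted p under 0.05. That fit has fewer degrees of freedom and uses the spread of these stages alone. The median SD of a gene was 0.0762 at E12.5 and 0.119 at E13.5. Why no gene passed was not tested. The 6 arrays give no value for the step before. Normexp gave 53 and 31 genes past 2-fold with an offset of 16 and 15 lower with an offset of 50, the mean of all probes 3 lower, and no filter 116 higher. Cyclic loess, trend with robust variance and other floors stayed within 1.5 times. Whether replicate numbers pair the samples is not given by the labels. The replicate block gave 253, 415, 20, 8 and 153.

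Genes that turned sign, all uncalled with all arrays, did so mainly without E13.5 replicates 2 and 3: Tcf21 (-0.21), Col1a1 (-0.35), Pdgfra (0.27), Cdkn1c (0.031), Traf4 (-0.10), Rps7 (-0.71), Rps6 (-0.82), Srr (0.28), Hes1 (-0.24) and Thbs2 (0.014). Snai2 turned without E12.5 replicate 1 (0.12), without E13.5 replicate 3 (0.06) and with array weights (0.10), Col3a1 without E13.5 replicate 1 (-0.22) and with array weights (-0.10), Pdgfra without E12.5 replicate 1 (0.09), without E13.5 replicate 3 (0.14) and with cyclic loess (0.013), and Igf2 with array weights (-0.013). With 1 array left out, Snai2 ran from -0.18 to 0.12, Col3a1 from -0.22 to 0.35 and Pdgfra from -0.16 to 0.14. The cause was not tested.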

Other observations

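Among the 20 genes with the widest gap between E13.5 replicates 2 and 3 and the other 16 arrays were 3 matrix genes and an RNA-binding protein that were not raised in the same way on replicate 1. Mfap4, a microfibril-associated glycoprotein, read 10.26 on E13.5 replicate 1 and 11.18 and 11.03 on replicates 2 and 3. Emilin1, an elastic fibre protein, read 8.38, 9.33 and 9.58, and Svep1, a matrix adhesion protein, read 7.61, 8.84 and 9.13. Hnrnpl, a splicing regulator, read 10.16, 11.79 and 11.71. From the E12.5 mean, replicate 1 differed by 0.09 for Mfap4, -0.21 for Emilin1, -0.43 for Svep1 and -0.43 for Hnrnpl. They were chosen after their values were seen, and what sets these arrays apart was not tested.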
